A study of Mus musculus with 4 samples.

Results

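Treg cells, grown with IL-2 from CD4 T cells that already carried Foxp3, were compared with Th0 cells, grown from naive CD4 T cells in an unpolarised (Th0) culture, across all genes on the array. The comparison uses 2 of the 4 arrays of the series, taken by their labels. Both populations came from C57BL/6 mice aged 8 to 10 weeks (lymph node and spleen), were cultured, and were then sorted as negative for IL-17, which the labels mark by GFP. The Treg cells were sorted as Foxp3 positive and the Th0 cells as Foxp3 negative, marked by APC. The remaining arrays hold IL-17 positive, Foxp3 negative cells from Th17 cultures, named Th17 where the precursors were naive and exFoxp3Th17 where they were Foxp3+, and their values stand here only as levels for reference. Treg and Th0 cells differ in precursor, in culture and in the Foxp3 gate at the same time, so these cannot be told apart. The labels do not name the other agents of either culture, its length, or whether animals were pooled. Each population has 1 array, so there is no spread between samples, no test was possible, and each ratio is between 2 single measurements.

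Foxp3 is the transcription factor that sets and maintains the identity of regulatory T cells, which restrain other T cells through inhibitory receptors, cytokines and the consumption of IL-2. These cells carry the high-affinity IL-2 receptor but make little IL-2 themselves, and IL-2 acts in them through the kinase JAK3 and the factor STAT5. Naive T cells instead carry receptors for IL-7 and for homing to lymph nodes, and lose many of these when they become effector or memory cells.

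Of 18193 genes with a probe set of their own, 11205 lay above the floor on the Treg or the Th0 array. The floor is a deposited signal of 12.1, the median over all non-control probe sets of the 4 arrays, and lower values were set to it before ratios were taken. A gene is called higher or lower in Treg where the ratio reached 2-fold and the brighter array lay above the floor, and a fold against a value under the floor is a lower bound, written as at least. Probe sets above the floor made up 51.2% on the Th0 and 49.9% on the Treg array. The 3' to 5' ratio of control probe sets, which rises as RNA degrades, was 1.06 in Th0 and 0.918 in Treg for Gapdh, and 1.23 and 1.12 for Actb. Xist was under the floor on both arrays, and Eif2s3y, a Y-linked gene, had a signal of 747 in Th0 and 654 in Treg. Both arrays held the T cell markers: of 13 measured, 12 were within 2-fold, among them Cd3d (4127 in Th0, 3133 in Treg), and Cd4 itself was lower in Treg (109.6 and 48.3), a call lost with the mean of its probe sets. Cd8a was at 11.1 and 14.3 and Cd8b1 at 64.6 and 51.7. The B cell markers Cd79a, Ms4a1 and Pax5, the myeloid markers Lyz2, S100a8 and S100a9 and the NK cell marker Ncr1 were all under the floor on both. Other listed markers were not: Cd79b was at 9.64 in Th0 and 55.6 in Treg, and Ighm at 3316 and 2406. Above the floor on either array were 3 of 11 B cell, 5 of 15 myeloid, 4 of 7 dendritic cell and 1 of 5 NK cell markers. So were 3 of 9 stromal and endothelial and 1 of 6 erythroid and platelet markers.

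In Treg, 658 genes were higher (5.87% of those above the floor) and 585 lower (5.22%), together 11.1%, and 9962 lay within 2-fold. The shares of 5.87% and 5.22% are the ones to set beside the list counts that follow. The median log2 ratio over all 11205 genes was -0.04. Large differences were mostly upward: 57 genes were higher by 8-fold or more (0.509%) against 18 lower (0.161%), and at 32-fold or more the counts were 7 and 1. Against a Th0 value under the floor, 178 of the higher genes have only a lower bound, as do 63 of the lower genes against a Treg value under it. Other probe sets of the same gene give the only repeat measurement, and they share the array and the RNA. They went the same way throughout in 274 of the 307 higher genes and 232 of the 270 lower genes that had one above the floor. At least 1 of them reached 2-fold in 175 and 134. None of the higher genes and 2 of the lower genes had another probe set going the opposite way by 2-fold. Over 2672 genes with a pair of probe sets above the floor on both arrays, the log2 ratios within a pair differed with a robust SD of 0.43, and by 1 or more in 7.6% of genes.

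**Figure D1:**
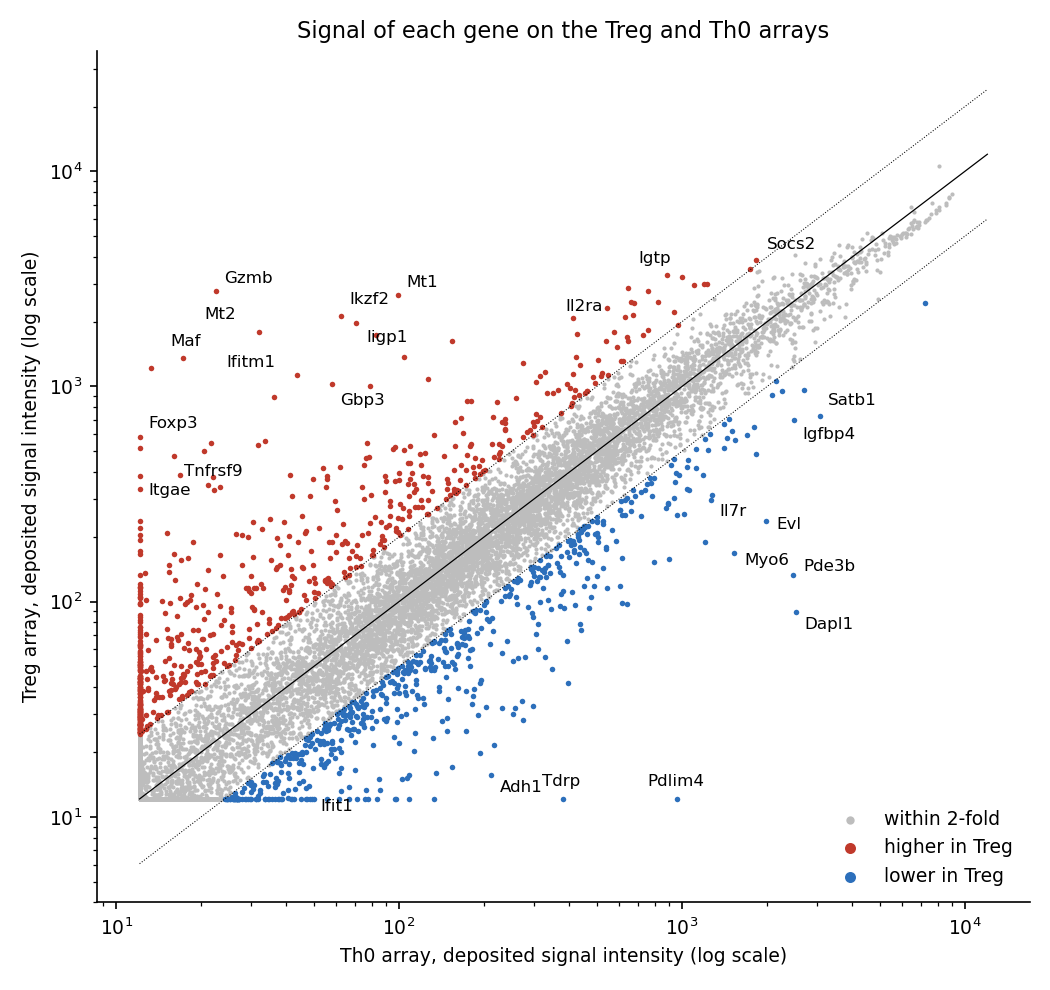
Deposited signal of each gene above the floor on the Th0 array (horizontal, log scale) and the Treg array (vertical, log scale); values under the floor are drawn at it, the solid line marks equal signal and the dotted lines 2-fold. The 658 higher genes (red) reach farther from the line than the 585 lower genes (blue), and Foxp3, Gzmb and Maf lie far above it while Pdlim4, Dapl1 and Pde3b lie far below.

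**Figure D2:**
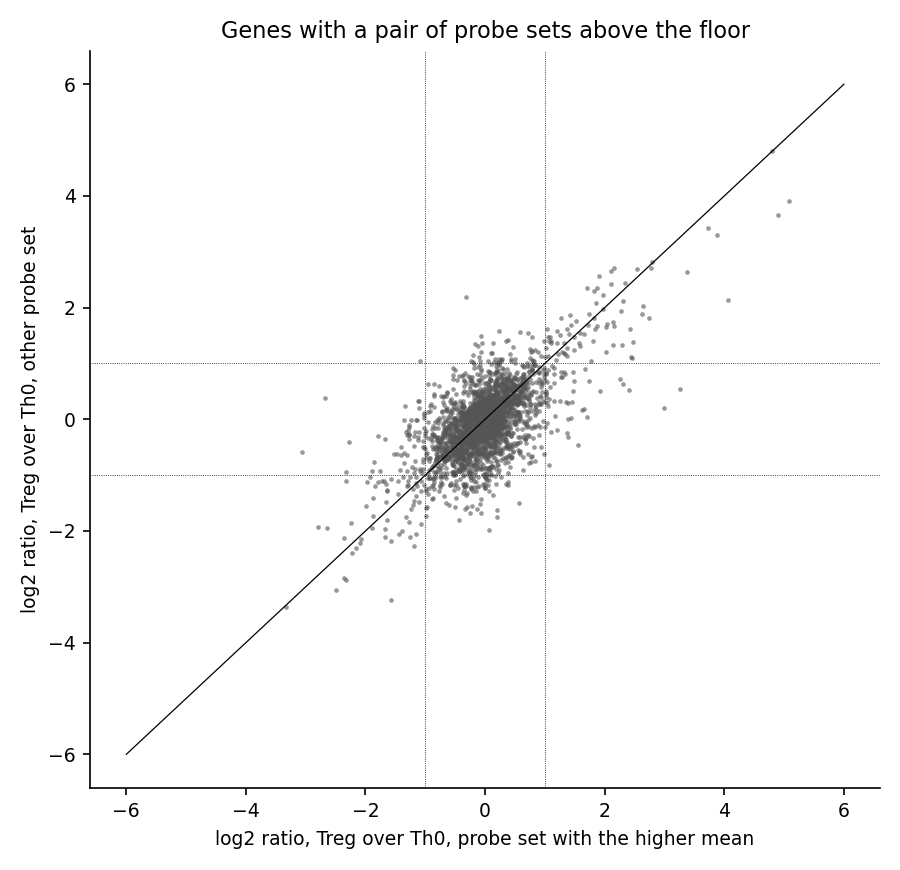
Log2 ratio of Treg over Th0 for the 2672 genes with a pair of probe sets above the floor on both arrays, with the brighter probe set of each pair on the horizontal axis and the other on the vertical axis; the solid line marks equal ratios and the dotted lines 2-fold. Of 248 pairs whose brighter probe set differed by 2-fold or more, the other probe set went the same way in 231 and reached 2-fold the same way in 135.

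Genes of the regulatory T cell signature were nearly all higher in Treg. Of 32 genes listed, 28 passed the floor on the Th0 or Treg array, and 25 of these were higher, 0 lower and 3 within 2-fold (median log2 ratio 2.09) against -0.04 over all genes. Over the 23 that lay above the floor on both arrays the median was 1.89. Many of these genes are known from sorted regulatory T cells, so the list checks the label and is not a separate finding. Foxp3 gave a signal of 585 on the Treg array and lay under the floor on the other 3 arrays (4.25 in Th0, 6.20 in Th17 and 8.03 in exFoxp3Th17), at least 48.3-fold higher than in Th0, the direction of the gate. The cells of those 3 arrays were sorted as Foxp3 negative and the Treg cells as Foxp3 positive. An array gives no value per cell, so the spread of Foxp3 RNA among the sorted cells was not tested.

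Ikzf2, the zinc finger factor Helios that binds with Foxp3 and stabilises the regulatory fate, was at 2115 in Treg and 62.2 in Th0 (Th17 48.2, exFoxp3Th17 158). It was 34.01-fold higher in Treg than in Th0, both its other probe sets were higher by 2-fold or more, and Treg alone was high. Its relatives Ikzf4 (Eos) and Ikzf3 (Aiolos) were 4.91-fold and 5.42-fold higher. Ikzf1 (Ikaros), the founding member, was at 2440.5 in Th0 and 1227 in Treg and just missed the 2-fold line. Its other probe set was lower in Treg by more than 2-fold (log2 ratio -1.29). Ikzf4 and Ikzf3 were not high in Treg alone: Ikzf4 was at 383 and Ikzf3 at 412 in exFoxp3Th17, beside 292 and 524 in Treg.

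Inhibitory and costimulatory receptors of the signature were already bright in Th0 and differed less. Ctla4, which strips B7 ligands from antigen-presenting cells, was at 755 in Th0 and 2789 in Treg (3.69-fold higher). Il2ra (CD25), which gives the IL-2 receptor its high affinity, went from 646 to 2878, Tnfrsf18 (GITR) from 1194 to 2979.8, Tnfrsf4 (OX40) from 544 to 2319.9 and Icos from 671 to 2138. By these probe sets each reached 2-fold and none reached 5-fold. Another probe set of Il2ra and of Icos did pass 5-fold (log2 ratios 2.72 and 2.58). By contrast Tnfrsf9 (4-1BB, a costimulatory receptor of activated T cells) was near the floor in Th0 (16.01) and at 477 in Treg (29.8-fold), and Itgae, the alpha E chain of the integrin that binds epithelial E-cadherin, was under the floor in Th0 (8.32) and at 384 in Treg (at least 31.8-fold). Itgae was brighter still in exFoxp3Th17 (1298). Gpr83, a G protein-coupled receptor used as a regulatory T cell marker, was at 199 in Treg and at 29.1, 36.5 and 7.98 in Th0, Th17 and exFoxp3Th17. The 3 members within 2-fold were Ebi3 (70.3 and 134), a subunit of IL-35 and IL-27, Capg (1101 and 1628) and Cd83 (20.7 and 25.02). The listed genes Lrrc32, Tigit, Areg and Tnfrsf8 were not above the floor on either array or have no probe set of their own here.

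**Figure D3:**
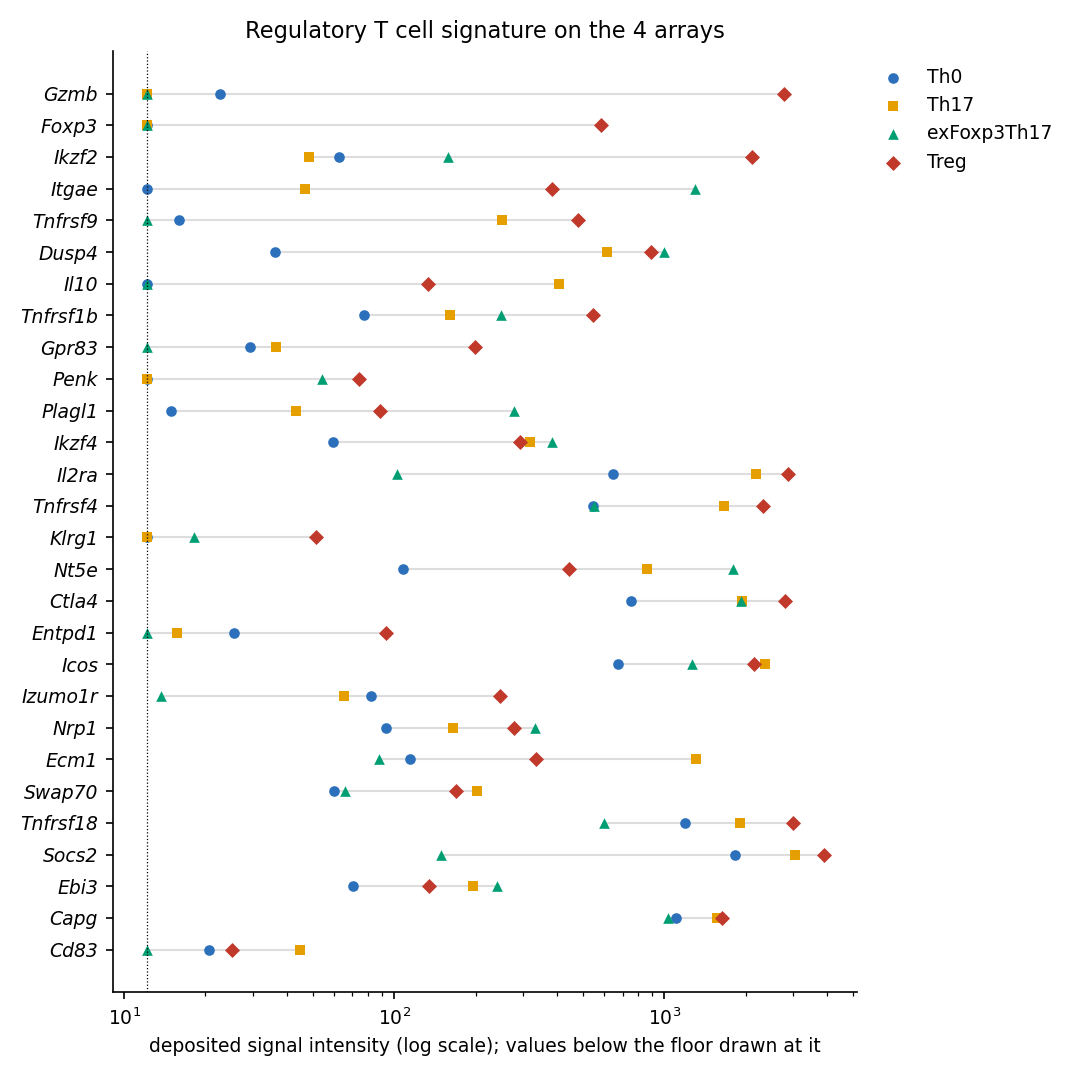
Deposited signal (log scale) of the 28 regulatory T cell signature genes above the floor on the Th0 or Treg array, on each of the 4 arrays, ordered by the ratio of Treg over Th0; 1 symbol is 1 array and the dotted line is the floor of 12.1. The Treg diamond lies to the right of the Th0 circle in every gene shown, and for Foxp3, Ikzf2 and Gzmb it stands apart from all 3 other arrays.

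Beyond Foxp3 itself, the factors known to work with it or to read and mark its locus were mostly level. Of 31 measured, 4 were higher and 2 lower, and the median log2 ratio was -0.12. The higher genes were the 3 Ikaros relatives above and Hif1a, the oxygen-sensing factor (1224 and 3006). The lower genes were Satb1, a chromatin organiser that Foxp3 is known to repress (3066 and 729.9, 4.20-fold), and Tet1, an enzyme that oxidises methylated cytosine (49.7 and 16.9), whose call was lost with the mean of its probe sets and at 4 times the floor. Runx1 was at 425 and 222, its relative Runx3 at 332 and 604, and the shared partner Cbfb at 1349.6 and 1742, all within 2-fold. Stat5a (120.1 and 114) and Stat5b (284 and 273) hardly differed between the arrays.

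Genes that mark effector regulatory T cells, the activated state found in tissues, were high in Treg. Of 20 listed, 16 passed the floor on either array, 13 of them higher and 0 lower (median log2 ratio 2.36). Klrg1, Il10, Havcr2 and Itgae passed it on Treg alone and could not have been called lower. Over the 12 above it on both arrays the median was 2.195. Of the 16, 5 also stand in the signature list. Gzmb, the serine protease granzyme B, showed the largest ratio among the genes ranked, which left out clone and predicted names. It was at 2781 in Treg and 22.6 in Th0 (Th17 10.98, exFoxp3Th17 1.13), 123-fold higher than Th0. Treg alone was bright, and Gzmb has no other probe set above the floor to check it. Maf, a bZIP factor needed for IL-10 in several T cell types, was 78.5-fold higher (17.2 in Th0, 1351 in Treg), with all 4 other probe sets higher by 2-fold or more. Maf was brighter again in Th17 (3072) and exFoxp3Th17 (2219), so Th0 is the array that stands apart. Prdm1 (Blimp-1), which drives effector differentiation, went from 61.9 in Th0 to 422 in Treg, Myb from 79.2 to 1009, and Irf4 from 109.5 to 373. Il10, the suppressive cytokine, was under the floor in Th0 (5.13) and at 133 in Treg, at least 11.03-fold higher, and higher again in Th17 (408). Gata3 (452 and 288), Batf (420.3 and 581) and Rora (66.3 and 107) were within 2-fold.

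Known targets of IL-2 and STAT5 were mostly higher in Treg than in Th0. All 22 listed genes passed the floor on either array, and 15 were higher, 2 lower and 5 within 2-fold (median log2 ratio 1.52). The list is not separate from the others. Members shared with the signature list include Socs2, Gzmb and Tnfrsf9, and Il7r also stands in the list of genes known to be low in regulatory T cells. The suppressors of cytokine signalling, which STAT factors induce and which then shut the receptor down, went together: Cish from 420.5 to 1366, Socs3 from 663 to 2461, Socs2 from 1830.2 to 3884 and Socs1 from 57.3 to 118. Socs2 did not keep its call with the mean of its probe sets. The other arrays, neither of which has IL-2 in its label, differed from each other. In Th17, Cish stood at 1460.2, Socs3 at 2121, Socs2 at 3052 and Socs1 at 81.4, so Cish and Socs3 were close to Treg there. In exFoxp3Th17 they stood at 353, 2514, 149 and 32.6, and Socs3 alone was about as bright as in Treg. Lta (lymphotoxin alpha) went from 258 to 886, Osm (oncostatin M) from 185 to 467 and Cdkn1a, the cell cycle inhibitor p21, from 74.9 to 434. Lta and Cdkn1a were brighter still in Th17 (1626 and 727). The 2 lower genes were Pim2, a survival kinase (540.5 and 175), and Il7r, the IL-7 receptor alpha chain, which IL-2 signals are known to repress (1267 and 297). Bcl2 (1414 and 1398), Ccnd2 (1693 and 2273) and Pim1 (1792 and 2458) did not reach 2-fold.

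STAT dimers bind the letters TTCNNNGAA, where N is any base. These were found in 8 of 20 promoters of the list in RefSeq's table (7 of the 16 genes it holds), beside 8.3% of all 32851 promoters of 300 bases, 250 before and 50 after the start site. Both directions were among them, with 5 genes higher (Cish, Gzmb, Lta, Socs3 and Tnfrsf9), 1 lower (Il7r) and Bcl6 within 2-fold. The letters are a description and show no binding. Stretches of the promoters of a pair of higher genes and of the lower gene are given 5' to 3' on the gene's strand, in GRCm38.p6, with the letters in capitals, at chr4:150927823-150927911 for Tnfrsf9, chr11:117969472-117969560 for Socs3 and chr15:9529970-9530058 for Il7r.
Tnfrsf9: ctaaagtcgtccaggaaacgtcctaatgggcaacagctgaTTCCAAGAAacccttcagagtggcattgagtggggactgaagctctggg
Socs3: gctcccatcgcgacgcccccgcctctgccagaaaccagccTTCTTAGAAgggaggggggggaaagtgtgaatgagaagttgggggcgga
Il7r: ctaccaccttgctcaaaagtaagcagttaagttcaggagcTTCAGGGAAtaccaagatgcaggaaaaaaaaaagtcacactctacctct

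The receptors for cytokines of the common gamma chain family divided by cytokine. Both IL-2 receptor chains measured were higher in Treg: Il2rb, the signalling beta chain shared with IL-15, went from 173 to 860.2, beside Il2ra above, and Jak3, the kinase bound to the common chain, from 38.96 to 113. Il7r was 4.26-fold lower, and Il4ra was at 622 in Th0 and 339.9 in Treg. Il21r (152 and 151) and Il15ra (26.7 and 24.1) were nearly equal. Of 8 genes in all, 3 were higher, 1 lower and 4 within 2-fold.

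Receptors outside that family split as well, with 5 of 19 higher and 4 lower, beside 5.87% and 5.22% of all genes. On the IL-6 side, Il6ra, which binds the cytokine, was 3.22-fold lower (875 and 272), and the signalling chain Il6st (gp130) went from 245 to 106, a call lost with the mean of its probe sets. Il1r2, the decoy receptor that captures IL-1 without signalling, was under the floor in Th0 (4.25) and at 112 in Treg (at least 9.22-fold higher). Il12rb1 went from 18.2 to 101 and Ifngr1, the ligand-binding interferon gamma receptor chain, from 589.9 to 1529, while its partner Ifngr2 was at 57.4 and 39.7. The type I interferon receptor chains were within 2-fold (Ifnar1 298 and 234, Ifnar2 320.1 and 292).

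Interferon-inducible genes differed by family. Among the GTPases that attack intracellular pathogens and the IFITM membrane proteins that block virus entry, 13 of 18 listed genes passed the floor on either array, and 12 were higher in Treg and 0 lower (median log2 ratio 2.00). Gbp8, a GTPase gene that the list does not hold, went the other way (449 in Th0 and 174 in Treg, 2.58-fold lower). Iigp1 was at 1976 in Treg and 70.6 in Th0 (Th17 40.9, exFoxp3Th17 46.8), 27.98-fold higher than Th0, and its other probe set gave nearly the same ratio (a log2 ratio of 4.805 beside 4.806). Ifitm1 was at 1130.0 in Treg and 43.5 in Th0 (Th17 26.7, exFoxp3Th17 27.9). Gbp3 was at 1027 in Treg and 57.9 in Th0 (Th17 89.5, exFoxp3Th17 73.8). For these genes Treg alone was bright. Gbp2 was bright on both Treg and Th17 (1370.2 and 1298) and at 104 in Th0. Ifitm3 went from 154 in Th0 to 1624 in Treg, Ifitm2 from 123 to 492, and Igtp, already bright in Th0, from 886 to 3292. Ifi47 was at 1254 and 1953, within 2-fold.

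The antiviral genes induced by type I interferon did not follow. Of 24 measured above the floor, 8 were lower in Treg, 2 higher and 14 within 2-fold (median log2 ratio -0.66). Ifit1, which binds viral RNA, was 5.76-fold lower (76.7 in Th0 and 13.3 in Treg), and Ifit3 4.20-fold lower (69.6 and 16.6). Rsad2 (viperin) went from 54.1 to 21.8, Usp18, the protease that removes ISG15, from 66.5 to 25.2 and Rtp4 from 342 to 136. Ddx58, Oas3 and Ifit2 lay close to the 2-fold line, and the list's lower calls were 5 where arrays were scaled to equal medians and 6 after quantile normalization. The higher genes were Isg20, an exonuclease (196 and 453), and Zbp1, a sensor of nucleic acids (192 and 429). The factors of the pathway were within 2-fold: Irf7 (66.9 and 37.7), Irf9 (281 and 304) and Stat2 (30.7 and 28.3).

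Promoters in both families hold the letters of the interferon-stimulated response element. The interferon-stimulated response element contains GAAA, any 2 bases and GAAA, which reads TTTC, 2 bases and TTTC on the opposite strand, and 3.44% of all RefSeq promoters hold it in the 300-base window. It was found in 8 of the 10 higher GTPase and IFITM genes with a promoter in the table, and in 5 of the 6 lower type I interferon genes with one. The STAT letters TTCNNNGAA were in 5 of those 10 genes and in 1 of those 6, beside 8.3% of all promoters. These counts are descriptions and show no binding. Igtp and Irgm2, neighbours on chromosome 11, share 72 of the 74 bases compared between their stretches, and how far their probe sets tell their transcripts apart was not tested. The stretches below are 5' to 3' on each gene's strand in GRCm38.p6, with the response element letters in capitals. They come from 4 genes higher in Treg and then from 3 lower genes. They lie at chr11:58199482-58199555 (Igtp), chr11:58214873-58214962 (Irgm2), chr3:142620564-142620653 (Gbp2), chr3:142559959-142560043 (Gbp3), chr19:34640745-34640853 (Ifit1), chr19:34583333-34583456 (Ifit3) and chr12:26456523-26456612 (Rsad2).
Igtp: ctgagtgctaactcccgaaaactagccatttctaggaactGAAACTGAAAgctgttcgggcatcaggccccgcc
Irgm2: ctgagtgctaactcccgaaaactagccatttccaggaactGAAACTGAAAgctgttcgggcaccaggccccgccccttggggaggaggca
Gbp2: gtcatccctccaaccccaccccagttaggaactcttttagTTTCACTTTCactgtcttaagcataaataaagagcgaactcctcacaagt
Gbp3: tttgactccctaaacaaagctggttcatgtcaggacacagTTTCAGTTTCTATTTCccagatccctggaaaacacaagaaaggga
Ifit1: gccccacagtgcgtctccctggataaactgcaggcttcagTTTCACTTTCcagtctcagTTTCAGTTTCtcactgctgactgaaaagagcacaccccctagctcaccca
Ifit3: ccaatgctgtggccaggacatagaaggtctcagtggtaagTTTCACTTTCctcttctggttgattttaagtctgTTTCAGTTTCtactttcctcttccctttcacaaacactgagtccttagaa
Rsad2: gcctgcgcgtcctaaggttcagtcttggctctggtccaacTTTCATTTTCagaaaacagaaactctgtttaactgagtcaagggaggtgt

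**Figure D4:**
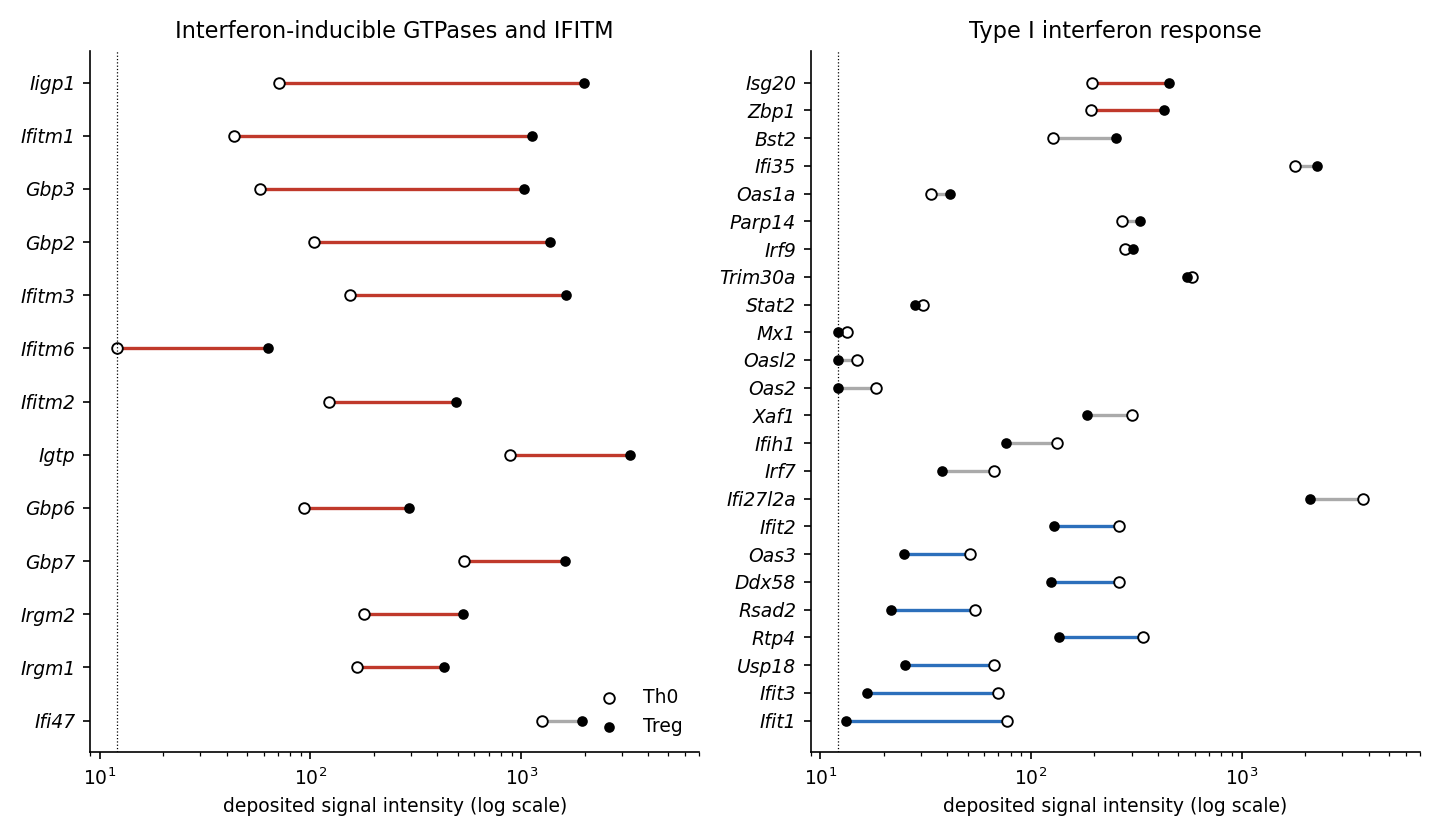
Deposited signal (log scale) on the Th0 (open) and Treg (filled) arrays of the 13 interferon-inducible GTPase and IFITM genes and the 24 type I interferon response genes above the floor; red lines join genes higher in Treg, blue lines lower, grey lines within 2-fold, and the dotted line is the floor. In the left panel 12 of 13 lines are red, and in the right panel 8 of 24 are blue and 2 red.

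Genes of the naive and resting state were lower in Treg. Of 24 listed, 21 were measured, all above the floor on both arrays; 12 were lower and 0 higher (median log2 ratio -1.27). Dapl1, a gene of unclear function that marks naive T cells, was at 2522 in Th0 and 89.3 in Treg (28.3-fold lower), and near the floor in Th17 (14.9) and exFoxp3Th17 (14.1). Ccr7, the receptor that brings T cells into lymph nodes, went from 962 to 251, Lef1, a Wnt pathway factor, from 1503 to 623, and Pik3ip1, an inhibitor of PI3 kinase, from 471 to 93.8. Txnip (1534 and 561), which restrains glucose uptake, and Btg2 (939 and 302), an antiproliferative gene, were lower too. Factors of quiescence did not reach 2-fold: Klf2 was at 1336 and 843, Foxp1 at 1631 and 988, Foxo1 at 524 and 402 and S1pr1, the exit receptor that Klf2 controls, at 329 and 351.

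A list of genes known to be low in regulatory T cells overlapped with the naive list in part. Of 16 above the floor on either array, 8 were lower, 1 higher and 7 within 2-fold (median log2 ratio -1.03). Pde3b, a phosphodiesterase that degrades cAMP and a known target of repression by Foxp3, was 18.6-fold lower: 2459 in Th0 and 132 in Treg. It was also bright on the other Foxp3 negative arrays, Th17 (1379) and exFoxp3Th17 (3261), so Treg alone was dim. Satb1 was at 729.9 in Treg and 3066 in Th0 (Th17 3881, exFoxp3Th17 4200.4), again with Treg alone low. Themis, needed for T cell receptor signalling in the thymus, went from 525 to 143, and Igfbp4 from 2490.5 to 699. Il2 itself was at 20.97 in Th0 and under the floor in Treg (0.772), too dim for a 2-fold call. Ptger4, a prostaglandin E2 receptor, went the other way, from 620.2 to 1319, a call that quantile normalization removed.

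The T cell receptor complex and its proximal signalling genes were lower by small amounts. Of 25 measured, 3 were lower by 2-fold (Themis, Txk and Cd4) and 0 higher, but the ratio lay below 0 in 23 (median log2 ratio -0.55) against -0.04 over all genes. Cd3g went from 2962 to 1871, Cd247 (the zeta chain) from 1415 to 842, Cd3e from 479 to 261 and Prkcq, the kinase that links the receptor to NF-kB, from 1067 to 626, each under 2-fold. Malt1 (366 and 582) and Ubash3b (157 and 208) were the members with a ratio above 0. The pair differences within genes had a robust SD of 0.43, which is of the order of many of these ratios.

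**Figure D5:**
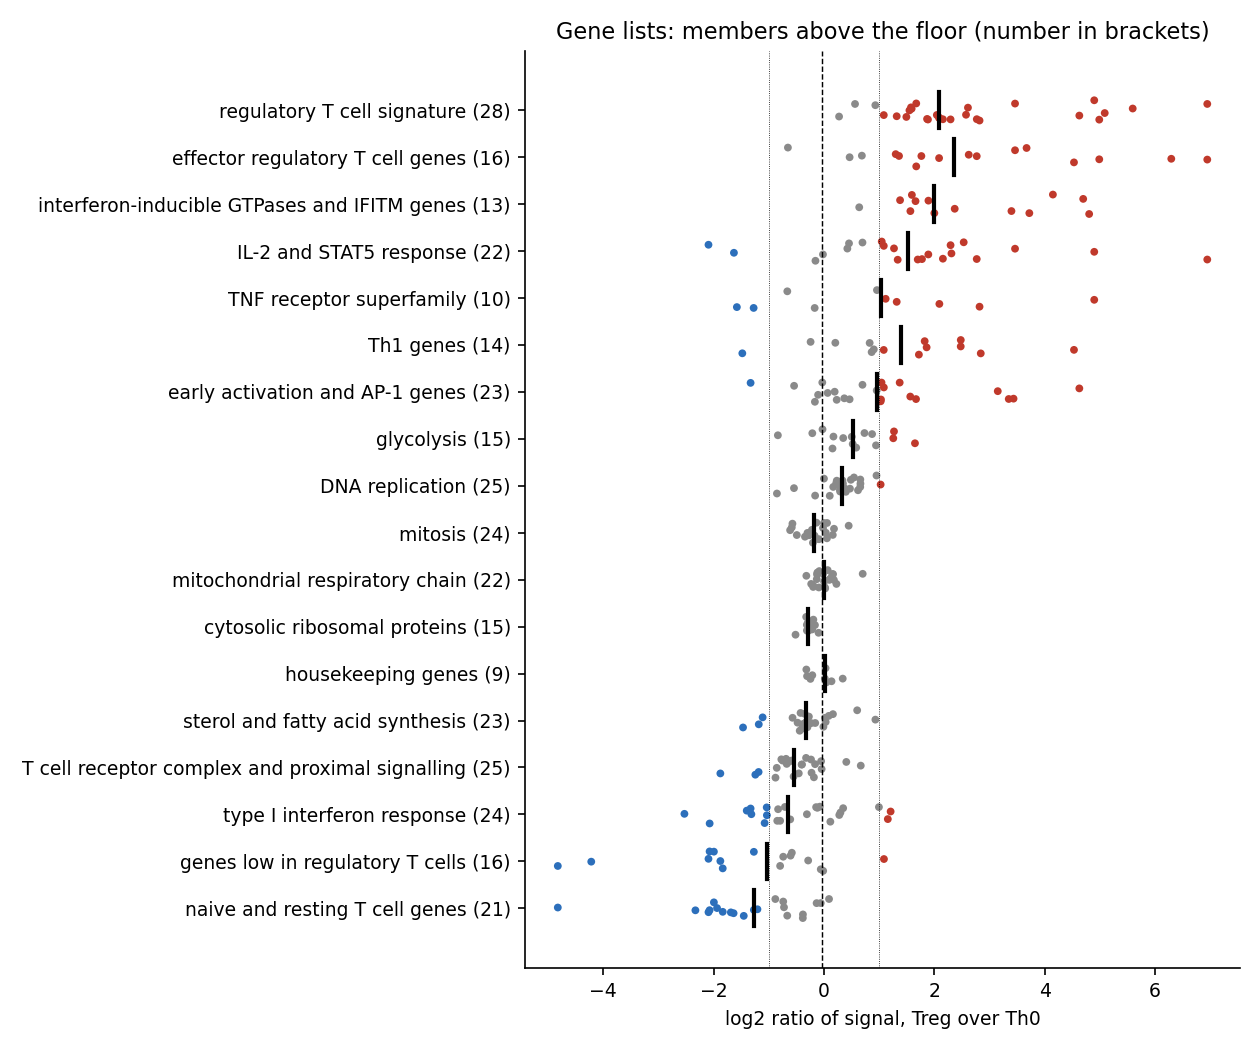
Log2 ratio of Treg over Th0 for each member above the floor of 18 gene lists; 1 point is 1 gene (red higher, blue lower, grey within 2-fold), black bars are list medians, the dashed line is the median of all genes (-0.04) and the dotted lines mark 2-fold. Medians run from 2.36 for effector regulatory T cell genes to -1.27 for naive and resting T cell genes, while the mitosis, respiratory chain, ribosomal protein and housekeeping lists hold no called gene.

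Among TNF superfamily receptors, which deliver costimulatory or death signals, 5 of 10 were higher and 2 lower, beside 5.87% and 5.22% of all genes. Beyond Tnfrsf9, Tnfrsf4 and Tnfrsf18, Tnfrsf1b (TNFR2), a receptor through which TNF supports regulatory T cells, went from 77.1 to 545, with its other probe set also higher by 2-fold. Tnfrsf13b went from 228 to 496. Cd27 (465 and 156) and Tnfrsf25 (DR3, 314 and 129.9) were lower, and Fas was within 2-fold (235 and 148). Ligands divided too, with 4 of 11 higher and 2 lower: Tnfsf10 (TRAIL), a death ligand, went from 30.5 to 236 with both other probe sets in step, and Tnfsf11 (RANKL) from 56.8 to 190.2, while Tnfsf8 (CD30 ligand) went from 306 to 70.4.

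Of 22 costimulatory and coinhibitory receptors and ligands, 9 were higher and 2 lower, and the 9 include Ctla4 and Icos, described above. At 4 times the floor 4 were higher. Pdcd1 (PD-1) went from 25.5 in Th0 to 89.7 in Treg, and Havcr2 (TIM-3) from under the floor (3.33) to 31.1. The B7 ligands Cd80 (32.8 and 89.2) and Cd86 (18 and 64.1) were dim but higher, and Cd86 was far brighter in Th17 (589). Btla, an inhibitory receptor of naive cells, was 4.10-fold lower (1278 and 312), and Cd96 went from 432 to 167. Cd28 itself was at 1827 and 1564.

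Genes that make adenosine and that control cAMP differed in both directions. The ectoenzymes Entpd1 (CD39), which degrades ATP, and Nt5e (CD73), which makes adenosine from AMP, were higher: Entpd1 went from 25.6 to 93.4 with both other probe sets higher by 2-fold, and Nt5e from 107 to 443. The phosphodiesterases Pde3b and Pde4b (478 and 105) were lower, the latter call lost with the mean of its probe sets, and Pde4d was at 304 and 175. Ada, which removes adenosine, went from 55.6 to 127, and its cell surface partner Dpp4 (CD26) from 337 to 149. Over the 14 measured, 3 were higher and 3 lower.

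Genes of the helper lineages were not evenly spread. Of 14 Th1 genes above the floor on either array, 8 were higher and 1 lower, beside 5.87% and 5.22% of all genes. Of the 14, 4 passed the floor on Treg alone (Tbx21, Eomes, Ifng and Ccl4) and could not have been called lower, and over the 10 above it on both arrays the median log2 ratio was 1.36. Tbx21 (T-bet), the Th1 master factor, was under the floor in Th0 (0.730) and at 86.8 in Treg (at least 7.17-fold higher), and its target Cxcr3 was 23.1-fold higher, at 389 in Treg and 16.8 in Th0 (Th17 17.98, exFoxp3Th17 66.1). Ifng reached only 25.7 in Treg, and Stat4, which relays IL-12, was lower (421 and 151). Hopx went from 314 to 1112 and Bhlhe40 from 89.4 to 325. Of 10 Th17 genes, 5 were higher and 0 lower, and other T cell states also express these 5: Maf, Irf4, Ahr (37.98 and 183), Ccr6 (19.6 and 54.5) and Tmem176a (27.8 and 63.2). Ahr and Maf were lower in Treg than in Th17, where they stood at 1528 and 3072. Among 7 Th2 genes, Nfil3 went from 22.1 to 329 and Ccr4 from 10.97 to 41.6, while Epas1 (232 and 57.4) and Il4 (29.2 and 8.84) were lower. The Ccr4 and Il4 calls, each against a value under the floor, were lost at 2 and at 4 times the floor. Of 13 follicular helper genes, 2 were higher and 5 lower, among them Pou2af1 (96.7 and 8.46) and Sh2d1a, the adaptor SAP (1117 and 418). Bcl6 was at 41.5 and 37.4.

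Few effector cytokines reached the floor: 10 of 23 listed. Apart from Il10 and Osm, Lif, an IL-6 family cytokine, went from 30.4 to 161, and Il16 from 918 to 432, the latter within 2-fold when arrays were given equal medians. Tgfb1 was at 66.5 and 125. Cytotoxic granule genes were higher in 7 of 14 and lower in 0. Besides Gzmb they included Ctsw, a cysteine protease of cytotoxic lymphocytes (20.4 and 502), Nkg7 (5.20 and 194), Gzma (9.75 and 109), Stx11 (55.6 and 372), which docks granules, and Prf1, the pore former perforin (11.97 and 56.02). The other probe set of Prf1 went the opposite way (log2 ratio -0.73), and its call was lost with the mean of both and at 4 times the floor. Of the 14, 4 passed the floor on Treg alone and could only be higher or uncalled, and over the 10 above it on both arrays the median log2 ratio was 0.18. Ctsw was brighter in Th17 (1358) and exFoxp3Th17 (984) than in Treg. Klrd1 (CD94), a killer lectin receptor, was 7.97-fold lower (256 and 32.1) and Klrg1, a marker of terminal effectors, at least 4.25-fold higher (10.8 and 51.4).

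Of 16 homing receptors above the floor on either array, 5 were higher and 2 lower, beside 5.87% and 5.22% of all genes, and 12 of the 16 passed it on both arrays. Gpr15, which directs T cells to the large intestine, was under the floor in Th0 (6.93) and at 121 in Treg, and Ccr7 was lower as above. Ccr6 and Ccr4 were higher but dim, Cxcr4 was at 128 and 188 and Ccr2 at 164 and 222. Integrin chains were higher in 4 of 14 and lower in 2, beside the same shares of all genes. Itgb8, whose integrin releases active TGF-beta and is used so by regulatory T cells, was under the floor in Th0 (3.02) and at 70.99 in Treg (at least 5.87-fold higher). Itgb3 went from 797 to 152 and Itga4, which pairs with beta 1 and beta 7, from 116 to 36.7. Of 4 chemokines above the floor on either array, only 1 passed it on both. Ccl5 (17.5 and 97.7) and Ccl4 (11.9 and 39.9) were higher, beside 5.87% of all genes. Ccl4 passed the floor on Treg alone and could not have been called lower, and its call was lost at 2 and at 4 times the floor.

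TGF-beta is known to help induce Foxp3 and Itgae, and of 16 genes of its response 5 were higher and 1 lower. Tgfbr1, the signalling receptor, went from 245 to 564, a call not kept with the mean of its probe sets, and Tgfbr2, the ligand-binding receptor, from 1409 to 670.1, a call lost with equal medians and with the mean of its probe sets. Tgfbr3 (betaglycan), which presents the ligand, was 9.44-fold lower (397 and 42.01) and bright on both Th17 arrays (341 and 384). The targets Skil (222 and 850.4) and Pmepa1 (60.2 and 265) were higher, and Smad7 (157 and 141) and Smad3 (332 and 186) within 2-fold. Skil and Pmepa1 were brighter in both Th17 cultures, at 1199 and 609.5 in Th17 and 1816 and 868 in exFoxp3Th17.

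Early activation and AP-1 genes were higher in 11 of 23 and lower in 1 (median log2 ratio 0.96). With no filter and the floor as pseudocount, 7 of 28 were higher (median 0.54), and with probe sets averaged the median was 0.47. Dusp4, a phosphatase of MAP kinases, was 24.7-fold higher (36.2 and 896), whereas Dusp6, its cytoplasmic relative for ERK, was 2.51-fold lower (661 and 263). The AP-1 subunits Fosl2 (18.7 and 190.2), Junb (45.4 and 144) and Jun (71.1 and 184) were higher, and Fos was at 172 and 334. The nuclear receptor Nr4a3 went from 12.6 to 136, Nr4a1 from 50.5 to 104 and Egr1 from 51.7 to 109.7. Cd69, the classic early surface marker, was at 324 and 317, and Myc at 567 and 527. NF-kB subunits and inhibitors were level but for Bcl3, a nuclear cofactor (55.7 and 385), and Relb, lower at 54.6 and 27.2 and within 2-fold under either other scaling. Of 16 such genes, 1 was higher and 1 lower, near the shares over all genes (5.87% and 5.22%).

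Cell cycle genes differed by group. Of 24 mitosis genes none was called (median log2 ratio -0.18): Mki67 was at 3445 and 2837, Top2a at 4396 and 3910.5. Of 25 DNA replication genes, Ccne2 (cyclin E2) alone was higher (226 and 461), a call that quantile normalization removed, and the median was 0.34. Among D cyclins and CDK inhibitors 4 of 13 were higher, beside 5.87% of all genes: Cdkn1a, Cdkn2a (34.7 and 82.8), Cdkn2b (2.57 and 33.3), and Cdk6 (463 and 949), which also lost its call with quantile normalization.

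In glycolysis 3 of 15 were higher and 0 lower: the glucose transporter Slc2a1 (759 and 1831), Hk2, the first enzyme of the pathway (122 and 383), and Pgam1 (728 and 1741), and the median was 0.52. Ldha was at 4336 and 4833. In sterol and fatty acid synthesis 3 of 23 were lower, beside 5.22% of all genes. All were of the sterol branch: Mvk (133 and 48.2), Mvd (299 and 132) and Dhcr7 (248 and 115), with Srebf2 at 453 and 338. None of 22 respiratory chain genes and none of 15 ribosomal protein genes was called; the medians were 0.01 and -0.28. In the Myc and ribosome biogenesis list Odc1, which starts polyamine synthesis, was higher (677 and 2449) and Wdr12 lower (462 and 206) of 20. That is near the shares over all genes (5.87% and 5.22%). Targets of the stress factor ATF4 were higher in 6 of 19 and lower in 0, but higher in 3 of 18 at 2 times the floor and in 3 of 14 at 4 times. They included Asns, asparagine synthetase (16.1 and 166), and Slc7a5, an importer of large amino acids (88.8 and 383), while Atf4 was at 774 and 832. The 9 housekeeping genes gave a median of 0.02 with none called.

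In antigen presentation, none of 11 class I genes was called (H2-K1 at 3470.1 and 3704, Psmb9, an immunoproteasome subunit, at 961 and 1746). Of 8 class II genes, H2-Ab1 (29.9 and 132) and Cd74, the invariant chain (16.7 and 41.4), were higher and H2-Oa lower (175 and 74.8). The Cd74 call was lost at 2 and at 4 times the floor and with no floor filter. H2-Ab1 was also bright in Th17 (219.8). B cells carry these genes in bulk, and of 11 B cell markers with a probe set only Ighm, Cd79b and Vpreb3 reached the floor on either array. The summed signal of the 11 was 3364 in Th0 and 2524 in Treg, most of it Ighm (3316 and 2406), with the defining markers Cd79a, Ms4a1 and Pax5 under the floor on both. Of 15 myeloid markers 5 reached it, summed at 151 and 102, and Adgre1 (F4/80) was lower in Treg (32.2 and 12.8). Whether such cells had a part in the class II values was not tested.

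Survival, lectin and protease genes held single large differences. In the BCL2 family 2 of 13 were higher and 1 lower, beside 5.87% and 5.22% of all genes. Pmaip1 (Noxa), a BH3-only death activator, went from 53.7 to 418 and Bcl2l2 from 21.4 to 69.9, while Bbc3 (Puma) went from 80.3 to 25.8. Bcl2l11 (Bim) was at 848 and 485, and Mcl1 at 2099.7 and 2570.0. S100a4 (127 and 1088), a calcium-binding protein of memory T cells, and Lgals3 (galectin 3, 427 and 1748) were higher among 21 galectin, S100 and annexin genes, and Anxa1 (146 and 58.1) was lower. Lgals1 was level at 7624 and 7111. Of 16 lysosomal and protease genes 4 were higher, and the largest ratios belonged to Ctsw and the protease inhibitors Ctla2a (82.9 and 1727) and Ctla2b (21.1 and 349), while Ctsb was at 530.5 and 534.

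Several of the largest ratios lay outside these lists. The metallothioneins, small proteins that bind zinc and copper, were far higher: Mt2 was at 1792 in Treg and 31.9 in Th0 (Th17 2990.2, exFoxp3Th17 614), 56.2-fold higher. Mt1 was at 2664 in Treg and 99.05 in Th0 (Th17 3765, exFoxp3Th17 1178), 26.9-fold higher. Th0 was the low array for both. Serpinb1a, an inhibitor of neutrophil proteases, was under the floor in Th0 (1.16) and at 515 in Treg, below Th17 (1354), and Plac8 followed the same order (21.6, 547 and 1133). Epcam, an epithelial adhesion protein, was under the floor on the other 3 arrays (3.08, 6.06 and 5.97 in Th0, Th17 and exFoxp3Th17) and at 334 in Treg (at least 27.6-fold), with its other probe set higher by 2-fold. The transglutaminase Tgm2 was at 7.41 in Th0, 3704 in Th17 and 236 in Treg, and 3 of its 4 other probe sets went the same way by 2-fold. Alcam (CD166), the ligand of CD6, was at least 18.2-fold higher (6.00 and 220.2).

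Downward, Pdlim4, a cytoskeletal adaptor, had the largest ratio: 958 in Th0 and under the floor on Treg (11.1), Th17 (4.10) and exFoxp3Th17 (1.21), at least 79.1-fold lower. Th0 alone expressed it above the floor. Tdrp was at 379 in Th0, 398 in exFoxp3Th17 and 6.07 in Treg (at least 31.3-fold lower), and Adh1, an alcohol dehydrogenase, at 212, 250.5 and 15.6. Both were as bright in exFoxp3Th17 as in Th0, so for them Treg and Th17 were the low arrays. Evl, an actin regulator, was 8.33-fold lower (1978 and 237), with all 3 other probe sets lower by 2-fold, and Treg alone was dim, since Th17 (836) and exFoxp3Th17 (2259.9) were bright. Myo6, an actin motor, went from 1529 to 169 with both other probe sets in step, and Vipr1, the receptor for vasoactive intestinal peptide, from 132 to under the floor (7.37).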

How the data were processed

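Total RNA from each sorted population was labelled with biotin and hybridised to Affymetrix arrays, per the labels. The deposited values are linear signal intensities, made by the authors with MAS5, per the submitters' processing notes, which give no version. The mean intensity after leaving out 2% at each end was 100.0 on each array, so the deposited scaling was kept.

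There are 45101 probe sets, including 64 controls. Of the others, 34945 have 1 gene symbol in the platform annotation, 932 have several and name no gene here, and 9160 are unnamed here. RefSeq's gene table gave the current symbol for 34741, and 204 kept the platform's symbol. Each gene is represented by the probe set naming it alone that was brightest on average (log2, over the 4 arrays, floored at 12.1).

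With 1 array per group, a gene was called at 2-fold or more with no test; the number of arrays limits the precision. The genes named are Foxp3 and the sex-linked genes, the 20 largest ratios in each direction (brighter array at least 4 times the floor, 48.4, no other probe set opposite by 2-fold, no clone name), and called members of 52 lists (944 entries, 854 measured), up to 6 in each direction; other members are given by value, and some called members beyond 6, the sequences shown and the families of the closing section were picked after their values were seen. The comparison, the lists and the rules were chosen with earlier results of these data known. Calling was tested on simulated data with an assumed noise, and with known changes only in genes whose mean lay above 4 times the floor. It therefore does not cover calls of dimmer genes. Promoters are RefSeq windows of GRCm38.p6. Python 3.11.15, numpy 2.4.6, pandas 2.3.3 and scipy 1.17.1 were used. Alternatives were another floor, no floor filter, another scaling, averaged probe sets and 3-fold.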

Additional observations from a re-analysis of the deposited data

How the results depend on the processing

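The number of genes lower in Treg moved from 585 to 901 at 0.5 times the floor. At 4 times the floor 348 genes were higher and 340 lower, and at 3-fold 304 and 169. The other settings stayed within 1.5 times the main counts, from 478 to 984 higher and from 413 to 484 lower. Under quantile normalization 758 were higher and 484 lower, and after scaling the arrays to equal medians 757 and 477, so the share of higher genes among those called was 61.0% and 61.3% beside 52.9%. No setting reversed a call of a named gene. Of 242 named genes called, 233 kept the call under quantile normalization, 233 with equal medians, 210 with probe sets averaged, 189 at 4 times the floor and 146 at 3-fold. With probe sets averaged, calls were lost for Anxa1, Bcl2l2, Cd4, Il16, Il6st, Itga4, Klf12, Mvd, Pde4b, Prf1, Rsad2, Rtp4, Slfn5, Socs2, Tet1, Tgfbr1, Tgfbr2, Tmem176a and Zbp1, among others. The type I interferon list had 3 genes lower at 4 times the floor, 2 at 3-fold and 11 at 0.5 times the floor, beside 8.

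No paired analysis was possible because each group has 1 array. With single arrays, differences between cultures, sorts or animals cannot be parted from those between Treg and Th0 cells, and dim genes near the floor carry the least certain ratios. Signals compare a gene between arrays, and not genes with each other.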

Other observations

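Gene families outside the lists were read by symbol after their values had been seen, so their counts are descriptions only. Of 7 MS4A membrane proteins above the floor on the Th0 or Treg array, 4 were lower in Treg and none higher: Ms4a4b, a T cell protein that slows division, was at 7229.5 in Th0 and 2434 in Treg, Ms4a6c at 1209 and 189 (its other probe set had a log2 ratio of 0.38), Ms4a4c at 216 and 21.6, and Ms4a4d at 83.6 and under the floor (9.27). Ms4a6b was at 4942 and 2536, just within 2-fold, and its other probe set was lower by more than 2-fold (log2 ratio -1.565). Schlafen genes, which are known to keep T cells quiescent, were lower in 4 of 7 and higher in none: Slfn2 went from 1704 to 595, Slfn8 from 335 to 102, Slfn1 from 194 to 43.3 and Slfn5 from 67.4 to 24. Slfn9 stood at 80.2 and 116. The GIMAP GTPases, which support the survival of resting lymphocytes, held no called gene among 8 (median log2 ratio -0.06), with Gimap4 at 3856 and 3464. Gimap6 was just within 2-fold (1013 and 509), and its other probe set was lower by more than 2-fold (log2 ratio -1.73). Gimap7 went the other way, within 2-fold (273 and 485). Akr1c aldo-keto reductases were lower in 3 of 4, namely Akr1c12 (204 and 32.3), Akr1c18 (48.5 and 11.4) and Akr1c13 (451 and 118). The sialyltransferases St8sia1 (639 and 97.9) and St8sia6 (391 and 65.4) were lower, while St8sia4 was at 1087 and 1868.

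Among 8 interferon regulatory factors, 3 were higher in Treg: Irf8 (23.3 in Th0 and 342 in Treg), Irf4 (109.5 and 373) and Irf1 (300.3 and 655), the last an early target of interferon gamma, while Irf3 (452 and 296) and Irf7 (66.9 and 37.7) were within 2-fold. Of 6 Gbp genes read by symbol, 5 were higher and Gbp8 was lower (449 and 174). In the IFI200 family of DNA sensors, Ifi213 (272 and 34.6) and Ifi209 (891 and 287) were lower, with Mndal at 3070.4 and 2244. Of 6 STAT genes only Stat4 was called. Among 13 Kruppel-like factors, Klf10, a TGF-beta early gene, went from 65.5 to 186, and Klf12 from under the floor (11.4) to 44.04, a call lost at 2 and at 4 times the floor and with the mean of its probe sets.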
